A study of Mus musculus with 24 samples.

Results

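The collapsin response mediator family (CRMPs) comprises 5 genes in the mouse, Crmp1, Dpysl2, Dpysl3, Dpysl4 and Dpysl5, and all 5 were followed here by symbol among the 55487 gene identifiers of the count tables. The members were chosen by the measured hippocampal level of Dpysl2, already known to be higher after bulbectomy in these data, and by kinship to it, so the hippocampal bulbectomy values of the members are given as a description, with no p-value. RNA-seq counts came from 3 dissected tissues (hippocampus, cortex, cerebellum) of wild-type mice. The animals had undergone either olfactory bulbectomy, in which the olfactory bulbs are removed, or a sham operation. Bulbectomy was represented by 4 hippocampus, 3 cortex and 2 cerebellum libraries, and the sham operation by 5 libraries of each tissue, 24 in all. The labels name no strain, age, sex or time after surgery. They do not say that replicates are separate animals, and p-values therefore measure the spread between these libraries, which may be technical.

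CRMPs are cytosolic phosphoproteins of developing and adult neurons. The family was named for its role in the response of growth cones to collapsin, now called semaphorin 3A, which signals through neuropilin and plexin receptors. CRMP2, the product of Dpysl2, binds tubulin dimers and promotes microtubule assembly in axons, and phosphorylation by Cdk5 and GSK3 lowers its affinity for tubulin. In adult brain CRMP2 is found in neurons and also in oligodendrocytes. The proteins resemble dihydropyrimidinase, an enzyme of pyrimidine breakdown, but lack its activity.

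Because the 5 genes are related in sequence, it matters whether short reads can tell them apart. The following stretch is the same 60-base part of the coding sequence in the members other than Dpysl3. It was taken from the GENCODE M21 transcripts on GRCm38. Among gap-free stretches of that length in the alignment it was picked for the most identical positions, so it is not typical of the coding sequence. Capitals mark bases that differ from Dpysl2.
Dpysl2: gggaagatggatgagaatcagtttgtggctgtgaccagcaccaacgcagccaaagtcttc
Crmp1: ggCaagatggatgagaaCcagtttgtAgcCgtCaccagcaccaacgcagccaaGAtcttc
Dpysl4: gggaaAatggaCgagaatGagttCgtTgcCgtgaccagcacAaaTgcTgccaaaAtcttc
Dpysl5: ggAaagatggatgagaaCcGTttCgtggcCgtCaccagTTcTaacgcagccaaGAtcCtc
The Dpysl2 stretch lies in an exon at chr14:66813231-66813290 on the minus strand, that of Crmp1 at chr5:37284034-37284093, that of Dpysl4 at chr7:139097828-139097887 and that of Dpysl5 at chr5:30791498-30791557, all 3 on the plus strand. Of its 60 positions 41 were identical in the 4 genes, and Crmp1 differed from Dpysl2 at 7, Dpysl4 at 10 and Dpysl5 at 13. Over the whole coding sequence identity to Dpysl2 was 73.2% for Crmp1, 72.9% for Dpysl3, 72.6% for Dpysl4 and 58.5% for Dpysl5. The longest run identical in any of the 10 pairs was 29 bases. The read length is not stated in the labels, so shared words of 2 lengths were counted on both strands. Of the 25-base words in the annotated transcripts, 0.229% to 0.543% per member also occurred in another gene's transcripts, including 17 of 4488 for Dpysl2, of which 5 occurred in another family member. None of the 50-base words did, a length chosen after the shorter one had been tried. None of the exon bases of the 5 genes overlaps another annotated gene.

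Dpysl2 (ENSMUSG00000022048) spans chr14:66802864-66868688 on the minus strand and Dpysl3 (ENSMUSG00000024501) chr18:43320984-43438286 on the minus strand. Dpysl4 (ENSMUSG00000025478) spans chr7:139086001-139102704, Dpysl5 (ENSMUSG00000029168) chr5:30711564-30799375 and Crmp1 (ENSMUSG00000029121) chr5:37241940-37292133, each on the plus strand.

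The libraries held 8145624 to 20230673 reads assigned to genes, apart from hippocampus sham 1 with 3255661 and hippocampus sham 4 with 138963332. All 5 members passed the filter on low counts in every comparison. Dpysl2 was covered by 166 to 11686 reads per library, Crmp1 by 387 to 25526, Dpysl4 by 131 to 6093, Dpysl5 by 100 to 4261 and Dpysl3 by 82 to 4725. Cerebellar and cortical markers matched the tissue labels. CPM is a gene's counts relative to the scaled library total. The summed level of cerebellar granule cell markers was 1218 to 3537 CPM in cerebellum and 20.7 to 81.4 CPM elsewhere. That of cortical layer markers was 491 to 698 CPM in cortex and at most 331 CPM elsewhere. Sums of hippocampal markers did not set hippocampus apart from both other tissues. CA pyramidal cell markers summed to 454 to 970 CPM in hippocampus and 444 to 828 CPM in cortex. Dentate granule cell markers summed to 59.9 to 266 CPM in hippocampus and 347 to 675 CPM in cerebellum. Some libraries stood apart. Striatal markers summed to 2583 CPM in hippocampus sham 1 and 3492 CPM in hippocampus sham 2, against 157 to 385 CPM in the other hippocampus libraries. Cerebellum sham 1 had 5514 CPM of Purkinje cell markers, against 1890 to 3485 CPM in the other cerebellum libraries. For the 5 members, results whose call rested on these 3 libraries are given with and without them. Marker tests, gene list tests and correlations were not repeated without them.

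Dpysl2 stood higher after bulbectomy in the hippocampus by 5.20-fold, and its fitted difference was also above 0 in cortex and cerebellum, where it was not called. The 4 hippocampus bulbectomy libraries measured 359.8, 482.3, 291.8 and 304.2 CPM. The 5 hippocampus sham libraries measured 49.0, 79.9, 61.1, 70.8 and 89.5 CPM. Every bulbectomy library lay far above every sham library. Group means were 359.5 ± 87.0 CPM (SD, n = 4) and 70.1 ± 15.8 CPM (SD, n = 5), a log2 fold change, bulbectomy minus sham, of 2.38 ± 0.21 (SE). It was the 1 member called at an adjusted p under 0.05, where 1.55% of the 13985 genes tested were called, and the 1 member whose groups did not overlap, where 9.48% of genes did not. Since this contrast chose the family, nothing is read from these counts. The difference was 2.21 to 2.45 when any single library was left out and 2.32 without hippocampus sham 1 and 2.

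In cortex the bulbectomy libraries were spread widely. Cortex bulbectomy 1 measured 99.9 CPM of Dpysl2, bulbectomy 2 measured 363.1 CPM and bulbectomy 4 measured 248.0 CPM. Sham libraries measured 78.8, 87.7, 98.4, 95.4 and 112.4 CPM. Bulbectomy 1 lay within the sham range and the other 2 lay above it. The means were 237.0 ± 132.0 CPM (SD, n = 3) and 94.5 ± 12.5 CPM (SD, n = 5). The log2 fold change was 1.30 ± 0.30 (SE), which did not pass edgeR's quasi-likelihood test over all genes (adjusted p = 0.384, unadjusted p = 0.000839, rank 30 by p). Without cortex bulbectomy 1 the difference was 1.66 with an adjusted p of 0.00308 in the same edgeR test, so this library decides the call.

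In cerebellum the bulbectomy libraries measured 160.7 and 185.3 CPM of Dpysl2. The sham libraries measured 93.8, 39.8, 33.9, 37.6 and 31.9 CPM. Both bulbectomy libraries lay above all 5 sham libraries, and cerebellum sham 1 lay far above the other sham libraries. Group means were 173.0 ± 17.5 CPM (SD, n = 2) and 47.4 ± 26.1 CPM (SD, n = 5). The log2 fold change of 1.81 ± 0.46 (SE) was not called by edgeR (adjusted p = 0.9998, unadjusted p = 0.00409, rank 28 by p). Without cerebellum sham 1 the sham mean was 35.8 ± 3.54 CPM (SD, n = 4), the difference 2.28 and the adjusted p 1.5e-05 in the same edgeR test. Here too 1 library decides the call.

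The bulbectomy effect on Dpysl2 was compared between tissues in a fit of all 24 libraries. Cortex minus cerebellum was -0.54 ± 0.51 (SE, log2 scale), which did not pass the edgeR interaction test (adjusted p = 1.0, unadjusted p = 0.294). Hippocampus minus cortex was 1.03 ± 0.46 and hippocampus minus cerebellum 0.49 ± 0.50, given without a test because the hippocampal contrast chose the gene. None of the 5 members was called for cortex against cerebellum, and none had an unadjusted p under 0.05 there.

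**Figure D1:**
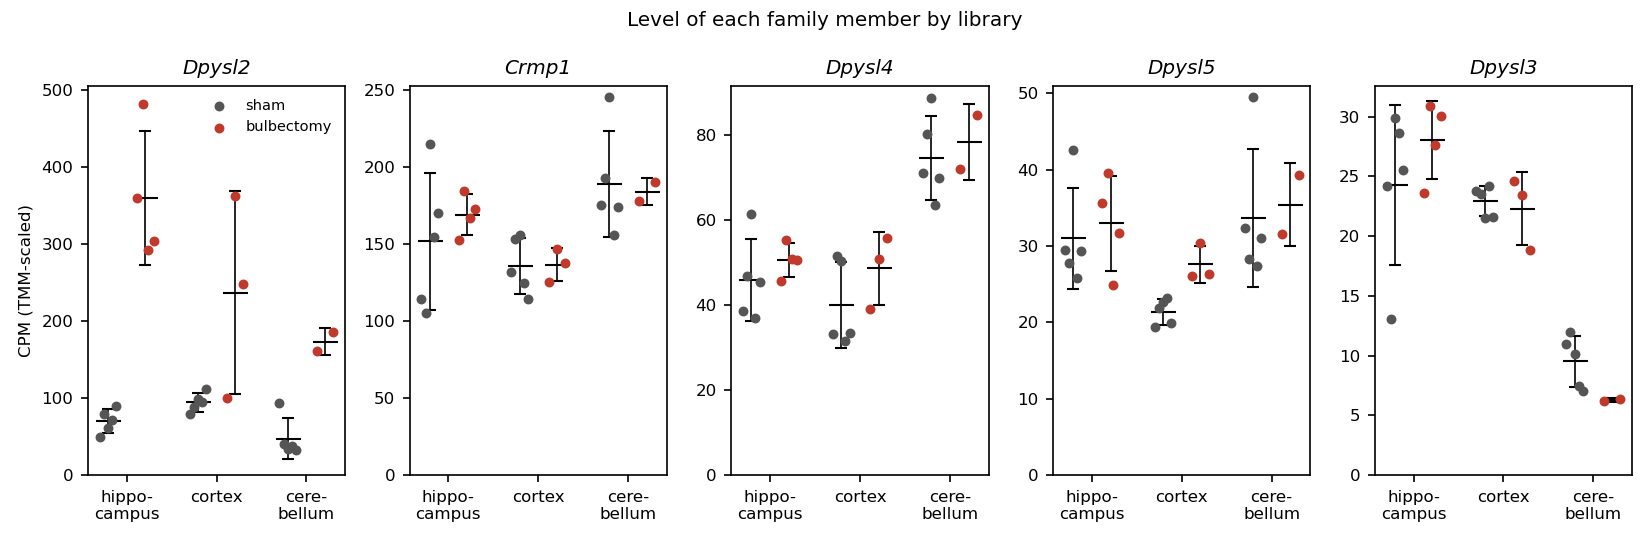
Level of each family member in CPM (vertical axis, starting at 0 and scaled separately for each gene) in the 3 tissues, with sham libraries in grey and bulbectomy libraries in red. Points are single libraries, horizontal marks the group means and bars the SD; Dpysl2 in hippocampus lies at 291.8 to 482.3 CPM against 49.0 to 89.5 CPM, and the groups are also separate for Dpysl2 and Dpysl3 in cerebellum and for Dpysl5 in cortex.

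The other 4 members gave much smaller differences. In hippocampus Crmp1 was at 169.2 ± 13.2 CPM (SD, n = 4) after bulbectomy and 151.9 ± 44.6 CPM (SD, n = 5) after sham, a log2 difference of 0.19 ± 0.19 (SE). Without hippocampus sham 1 and 2 this difference was -0.045. Dpysl3, expressed most strongly in immature neurons, differed by 0.24 ± 0.22, Dpysl4 by 0.17 ± 0.17 and Dpysl5, which encodes CRMP5, by 0.12 ± 0.19. For all 4 the 2 groups overlapped. Dpysl3 ranged from 23.6 to 30.9 CPM after bulbectomy and from 13.1 to 29.9 CPM after sham. Its lowest sham value came from hippocampus sham 2, a library with high striatal markers, and without hippocampus sham 1 and 2 the Dpysl3 difference was 0.043.

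In cortex 0 of the 5 members were called by edgeR, where 0.0202% of 14847 genes were called. At an unadjusted p under 0.05 edgeR gave 1 member, Dpysl2. DESeq2 called 1, also Dpysl2. Dpysl5 was the member whose cortex groups did not overlap, a state shared by 3.59% of genes. It measured 26.1, 30.4 and 26.3 CPM in the bulbectomy libraries and 19.4, 21.9, 22.6, 23.2 and 19.9 CPM in the sham libraries. Its log2 difference of 0.35 ± 0.16 (SE) missed the threshold in edgeR (adjusted p = 0.844, unadjusted p = 0.0516). Dpysl4 differed by 0.26 ± 0.21 (adjusted p = 0.882), Dpysl3 by -0.051 ± 0.18 (adjusted p = 0.967) and Crmp1 by -0.0076 ± 0.15 (adjusted p = 0.994), in the same test.

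In cerebellum 0 of the 5 members were called by edgeR, where 0.0131% of 15295 genes were called. At an unadjusted p under 0.05 edgeR gave 1 member, Dpysl2, and DESeq2 called none. Dpysl2 and Dpysl3 had groups that did not overlap, in opposite directions, as did 10.9% of genes in either direction. Dpysl3 measured 6.17 and 6.37 CPM after bulbectomy and 10.9, 11.99, 10.1, 7.47 and 7.07 CPM after sham. Both bulbectomy values lay below the lowest sham value, and the log2 difference of -0.62 ± 0.34 (SE) was not called (edgeR, adjusted p = 0.9998, unadjusted p = 0.0993). The remaining members lay close to 0, with Dpysl4 at 0.054 ± 0.18, Dpysl5 at 0.058 ± 0.26 and Crmp1 at -0.050 ± 0.19 (SE, log2 scale).

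**Figure D2:**
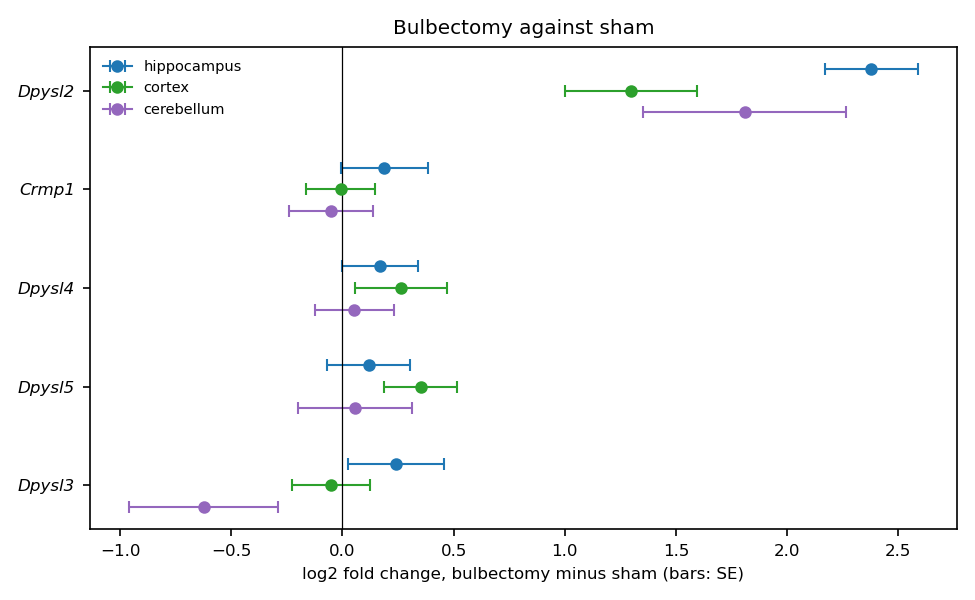
Log2 fold change, bulbectomy minus sham (horizontal axis, bars are SE), of the 5 members in hippocampus (blue), cortex (green) and cerebellum (purple). Dpysl2 lies at 1.30 to 2.38 in the 3 tissues, and the other members lie between -0.62 and 0.35.

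The Dpysl2 values after bulbectomy are given beside the markers of other cells and regions, since in bulk RNA more cells of a type and more RNA per cell cannot be told apart. Markers of thalamus and habenula, regions that border the hippocampus, summed to 230.7 to 420.7 CPM in the hippocampus bulbectomy libraries and to 72.8 to 292.3 CPM in the sham libraries. Of the 11 markers tested 10 were higher after bulbectomy, 5 of them called by edgeR. Hippocampus bulbectomy 1, 2, 3 and 4 had marker sums of 420.7, 230.7, 306.6 and 302.5 CPM. Their Dpysl2 levels were 359.8, 482.3, 291.8 and 304.2 CPM. Hippocampus sham 1, 2 and 4 had marker sums of 113.3, 72.8 and 95.3 CPM, below every bulbectomy library, and 49.0, 79.9 and 70.8 CPM of Dpysl2. Hippocampus sham 3 and 5 had sums of 291.0 and 292.3 CPM, inside the bulbectomy range, and 61.1 and 89.5 CPM of Dpysl2. In cerebellum the same markers summed to 146.0 and 154.2 CPM after bulbectomy and to 151.8 to 318.6 CPM after sham. Their part in the Dpysl2 result was not tested.

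Oligodendrocyte markers, of interest because CRMP2 is also found in those cells, summed to 4701 to 6059 CPM after bulbectomy and 3629 to 6530 CPM after sham in hippocampus. The ranges overlapped, with 8 of 10 markers higher and 0 called by edgeR. In cortex the sums were 1887 to 2736 CPM against 1476 to 2145 CPM, with 9 of 10 higher and 0 called. Cortex bulbectomy 1, the lowest of its group for Dpysl2, also had the lowest sum of its group. The highest sum was that of cortex bulbectomy 4, and the highest Dpysl2 level that of cortex bulbectomy 2. In cerebellum the sums were 4589 to 4832 CPM against 4137 to 4702 CPM, with 4 of 10 higher. No list of markers used here had a member at 0 in every library of a group, and the part of oligodendrocytes in the Dpysl2 result was not tested.

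Of the 14 marker lists, 1 in each tissue had sums that did not overlap between the treatments. In hippocampus Purkinje cell markers summed to 179.6 to 252.0 CPM after bulbectomy and 265.5 to 903.4 CPM after sham, with 3 of 4 markers lower. In cerebellum they summed to 2344 and 1890 CPM against 2554 to 5514 CPM, with 5 of 6 lower. In cortex choroid plexus markers summed to 17.8 to 30.6 CPM against 4.97 to 10.9 CPM, with 4 of 5 higher. The highest sum was that of bulbectomy 1, the lowest of its group for Dpysl2. Striatal markers overlapped between the cortex groups, with 8 of 9 higher. They summed to 390.5, 654.3 and 515.0 CPM in cortex bulbectomy 1, 2 and 4, and to 296.2 to 410.7 CPM after sham. CA pyramidal cell markers summed to 522.8, 827.7 and 565.7 CPM in the same bulbectomy libraries, with 2 of 6 higher. Both sums had the same order as Dpysl2 there. In hippocampus 0 of 9 striatal markers were higher, and in cerebellum 1 of 9. None of these markers was called by edgeR in these comparisons, and their part in the Dpysl2 result was not tested.

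**Figure D3:**
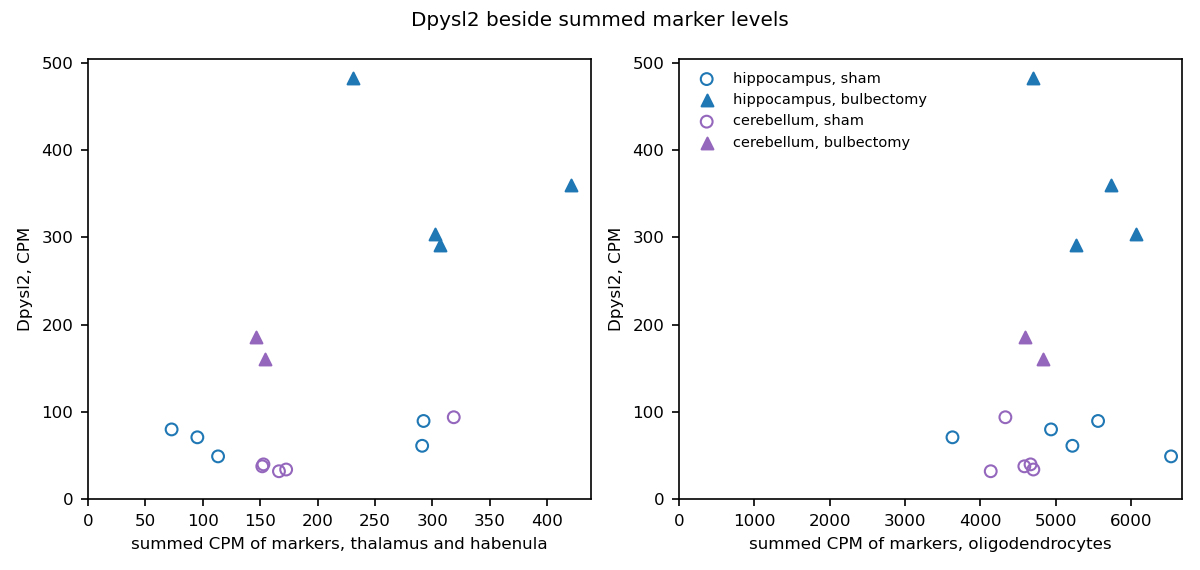
Dpysl2 level in CPM (vertical axes) against the summed CPM of thalamus and habenula markers (left) and of oligodendrocyte markers (right) in each hippocampus (blue) and cerebellum (purple) library, with filled triangles for bulbectomy and open circles for sham. In hippocampus the thalamus and habenula sums lie at 230.7 to 420.7 CPM after bulbectomy and 72.8 to 292.3 CPM after sham, and the oligodendrocyte sums at 4701 to 6059 CPM and 3629 to 6530 CPM.

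Levels were compared between members per kilobase of exon. With the union of all annotated exons as length, Dpysl2 was the highest member in 9 of the 9 bulbectomy libraries, while Crmp1 was highest in 12 of the 15 sham libraries and Dpysl2 in the other 3. This order depends on the length used, because Dpysl2 has 1 annotated transcript and Crmp1 has 10. With the length of the transcript of longest coding sequence, a choice made after the data were seen, Dpysl2 was highest in 6 of the 9 bulbectomy libraries and in 0 of the 15 sham libraries. In those 6 were all 4 of hippocampus and 2 of cortex. On that scale hippocampal Dpysl2 was at 79.5 ± 19.3 CPM per kilobase (SD, n = 4) after bulbectomy and 15.5 ± 3.50 (SD, n = 5) after sham, and Crmp1 was at 55.5 ± 4.33 and 49.8 ± 14.6. Dpysl3 was the lowest member in 21 of 24 libraries and Dpysl5 in 3 by transcript length, and in 15 and 9 by exon union.

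The summed level of the 4 members other than Dpysl2 was similar in the 2 treatments. In hippocampus it was 41.2 ± 3.31 CPM per kilobase of exon union after bulbectomy (SD, n = 4) and 37.1 ± 9.0 after sham (SD, n = 5). The cortex values were 34.6 ± 2.76 (SD, n = 3) and 32.4 ± 4.26 (SD, n = 5), and those of cerebellum 45.0 ± 3.49 (SD, n = 2) and 45.3 ± 7.72 (SD, n = 5). Each of these differences was smaller than the SD of the sham libraries. With Dpysl2 included, the hippocampal sum was 120.7 ± 21.6 against 52.6 ± 9.55 CPM per kilobase.

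The sham tissues were then compared with each other, using the 15 sham libraries in 1 fit. The 3 comparisons share libraries and are not independent. Dpysl3 was lowest in cerebellum, Dpysl4 highest there, and Crmp1 was called in none of the 3 comparisons. Dpysl3 measured 24.3 ± 6.67 CPM in hippocampus, 22.9 ± 1.28 CPM in cortex and 9.51 ± 2.16 CPM in cerebellum (SD, n = 5 each). The 2 forebrain levels did not differ beyond their spread (0.058 ± 0.21, log2 with SE), and both lay above cerebellum, by 1.42 ± 0.21 and 1.36 ± 0.21 (edgeR, adjusted p = 7.56e-05 and 8.89e-05). Every forebrain library exceeded every cerebellum library.

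Dpysl4 was highest in cerebellum. It measured 74.7 ± 9.84 CPM in cerebellum, 45.9 ± 9.70 CPM in hippocampus and 40.0 ± 10.1 CPM in cortex (SD, n = 5 each). Hippocampus was lower than cerebellum by a log2 difference of -0.64 ± 0.17 (edgeR, adjusted p = 0.0106) and cortex by -0.81 ± 0.17 (adjusted p = 0.00160). Without hippocampus sham 1 and 2 the hippocampal difference was -0.59 with an adjusted p of 0.0554 in edgeR. Hippocampus and cortex differed by 0.17 ± 0.17, which was not called (edgeR, adjusted p = 0.779).

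Dpysl2 was highest in sham cortex. Cortex exceeded cerebellum by 1.07 ± 0.27 (edgeR, adjusted p = 0.00541), and without cerebellum sham 1 by 1.47. Hippocampus minus cerebellum was 0.62 ± 0.27, which was not called (edgeR, adjusted p = 0.0983), but without cerebellum sham 1 it was 1.04 with an adjusted p of 7.34e-05 in the same edgeR test. Hippocampus minus cortex was -0.45 ± 0.27 (edgeR, adjusted p = 0.544). The sham level of Dpysl2 in hippocampus therefore lay between the other 2 tissues, and the difference from cortex was not called.

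Dpysl5 was lowest in sham cortex, at 21.4 ± 1.70 CPM against 31.0 ± 6.63 CPM in hippocampus and 33.7 ± 9.03 CPM in cerebellum (SD, n = 5 each). Cortex minus cerebellum was -0.56 ± 0.17 (edgeR, adjusted p = 0.0170), and without cerebellum sham 3 it was -0.41 with an adjusted p of 0.0579. Hippocampus exceeded cortex in every library, yet the difference of 0.51 ± 0.17 was not called (edgeR, adjusted p = 0.143). Crmp1 measured 151.9 ± 44.6, 136.0 ± 18.1 and 188.9 ± 34.3 CPM in hippocampus, cortex and cerebellum (SD, n = 5 each). None of its 3 differences was called by edgeR, the smallest p being that for cortex against cerebellum (adjusted p = 0.107, unadjusted p = 0.0458). There every cortex library (114.2 to 156.1 CPM) lay below every cerebellum library (156.2 to 245.7 CPM).

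Read against the background, edgeR called 0 of 5 members for hippocampus against cortex (3.3% of 15142 genes), 2 of 5 for hippocampus against cerebellum (28.4%) and 4 of 5 for cortex against cerebellum (34.7%). For hippocampus against cortex the groups did not overlap for 1 member, higher, and 0 lower, beside 6.8% of genes. For hippocampus against cerebellum this held for 1 member higher and 1 lower (18.1% of genes). For cortex against cerebellum it held for 1 higher and 3 lower (25.6%). For hippocampus against cortex 1 member, Dpysl5, had an unadjusted p under 0.05 and DESeq2 called 0.

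**Figure D4:**
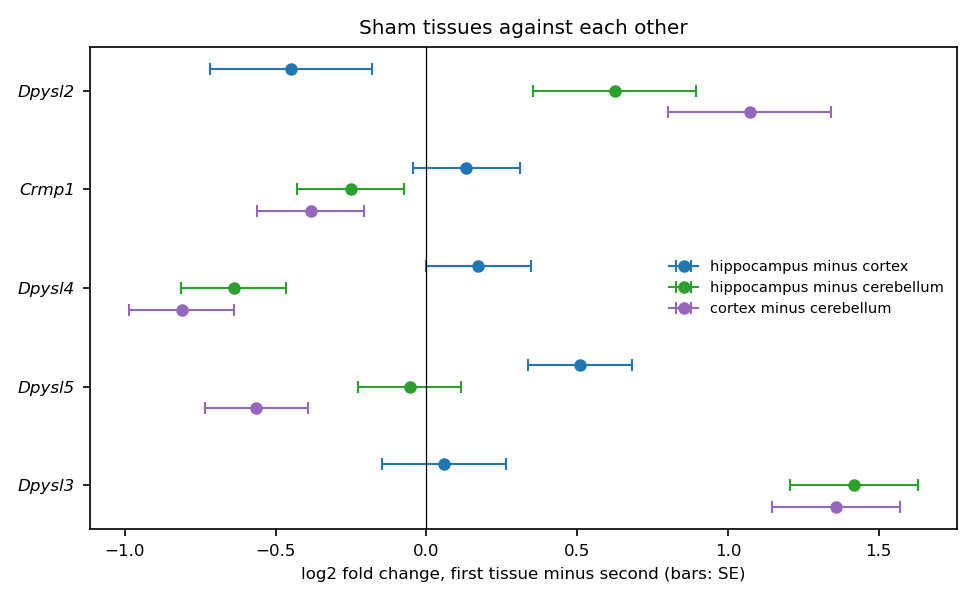
Log2 fold change between sham tissues (horizontal axis, first tissue minus second, bars are SE) of the 5 members for hippocampus minus cortex (blue), hippocampus minus cerebellum (green) and cortex minus cerebellum (purple). Dpysl3 lies at 1.36 and 1.42 in the comparisons with cerebellum and Dpysl4 at -0.81 and -0.64.

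Across the 24 libraries the members did not vary as 1 group. The correlations below are of log2(CPM + 1) over libraries that share tissue and treatment, and are descriptions. Dpysl4 and Crmp1 had a Pearson r of 0.78 for their levels and 0.68 for deviations from group means. For Dpysl5 and Crmp1 the values were 0.71 and 0.61. Dpysl3 and Dpysl4 had r = -0.70 for levels and 0.084 for deviations. The r of Dpysl2 with the other 4 was -0.15 to 0.38 for levels and 0.0095 to 0.19 for deviations.

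The gene whose level was most like Dpysl2 among 10451 genes with a mean of at least 5 CPM was Nlgn3, with r = 0.98 over the 24 libraries, followed by Inafm2 and Zmat3, both at 0.91. Nlgn3 encodes neuroligin 3, a postsynaptic adhesion protein, and lies at chrX:101299168-101325963. Its r with Dpysl2 was 0.99 in the 9 hippocampus libraries, 0.96 in the 8 of cortex and 0.97 in the 7 of cerebellum, and 0.89 for deviations from group means. Cortex bulbectomy 1, the lowest of its group for Dpysl2, was also the lowest for Nlgn3, at 27.2 CPM. Cerebellum sham 1, the highest of its group for Dpysl2, was also the highest for Nlgn3, at 23.2 CPM. Nlgn3 ranged from 54.4 to 70.7 CPM after bulbectomy and from 15.3 to 22.7 CPM after sham in hippocampus. The nearest family member, Dpysl3, ranked 1417th for Dpysl2.

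Over the 9 hippocampus libraries the 3 nearest genes to Dpysl2 were Nlgn3 (r = 0.99), Zmat3 (0.98) and Lrrc8a (0.97). These 9, like the full 24, include the bulbectomy difference that chose the family, so genes with a like difference rank high. For deviations from group means over the 24 libraries r was 0.89 for Nlgn3, 0.77 for Zmat3 and 0.76 for Lrrc8a. For levels over the 24 libraries Lrrc8a had r = 0.75. Zmat3 encodes a zinc finger protein regulated by p53, and Lrrc8a a subunit that volume-regulated anion channels require. Lrrc8a measured 46.5 to 56.3 CPM after bulbectomy and 8.56 to 14.7 CPM after sham. For the other members the nearest genes over 24 libraries were Tenm2, Smoc2 and St6galnac5 for Dpysl3 (r = 0.98, 0.96 and 0.96), Fndc10, Slc9a3r2 and Capn15 for Dpysl4 (0.93, 0.92 and 0.92), Abca2, Slc29a4 and Wscd1 for Dpysl5 (0.84, 0.83 and 0.82) and, among those of Crmp1, Pias3 and Kndc1 (0.88 and 0.87).

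**Figure D5:**
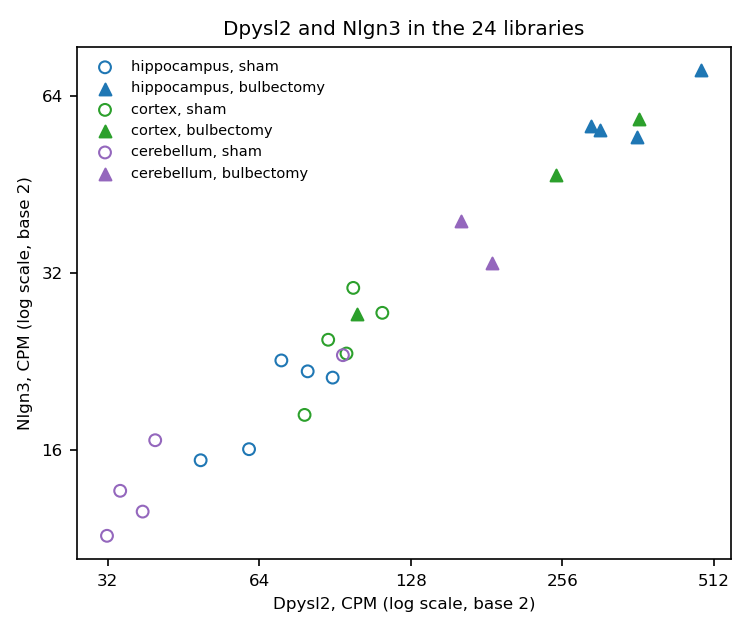
Dpysl2 (horizontal axis) against Nlgn3 (vertical axis) in CPM on log axes of base 2 in the 24 libraries, coloured by tissue, with filled triangles for bulbectomy and open circles for sham. The points follow 1 line through all 3 tissues (r = 0.98), with the 4 hippocampus bulbectomy libraries and cortex bulbectomy 2 (363.1 CPM of Dpysl2 and 58.5 CPM of Nlgn3) at its upper end.

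Genes of the pathways around the CRMPs were followed as 6 lists. Under bulbectomy edgeR called no list member in any tissue. Over all genes an unadjusted p under 0.05 was found for 2794 of 13985 in hippocampus, 877 of 14847 in cortex and 454 of 15295 in cerebellum, beside which the list counts at that p are to be read. In hippocampus all 12 tubulin genes, whose products CRMP2 binds, had a log2 difference above 0, with a median of 0.46 against 0.018 over all genes, 5 of them with an unadjusted p under 0.05 and none called. The tubulin of smallest p was Tuba1b at 0.67 ± 0.23 (edgeR, adjusted p = 0.135). The median was 0.24 in cortex and -0.027 in cerebellum.

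Of 15 immature neuron and growth cone genes 12 were above 0 in hippocampus, with a median of 0.31 and 7 at an unadjusted p under 0.05. The smallest p belonged to Calb2, calretinin, at 0.88 ± 0.22 (edgeR, adjusted p = 0.0574). Sham levels of Calb2 were 66.6 CPM in hippocampus and 753.3 CPM in cerebellum, and it is not read here as a mark of immature neurons alone. Among 14 semaphorin 3 ligands and receptors the median was -0.14 with 3 at an unadjusted p under 0.05, and Plxna2, a plexin receptor, was at -0.81 ± 0.21 (adjusted p = 0.0626). Of the 15 CRMP binding partners and cargo adaptors 10 were below 0 with a median of -0.28 and 6 at an unadjusted p under 0.05, among them the kinesin Kif5c at -0.68 ± 0.18 (adjusted p = 0.0661). The 13 kinases and activators known to act on CRMPs had a median of 0.20, with Camk2b at 0.30 ± 0.15 (edgeR, adjusted p = 0.285). The 2 measured pyrimidine enzyme genes were at a median of -0.22.

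In cortex and cerebellum the genes of smallest p per list were likewise not called by edgeR, with 0 to 2 genes of a list at an unadjusted p under 0.05 in cortex and 0 to 1 in cerebellum. Cortex Sox11, a transcription factor of immature neurons, stood at 1.11 ± 0.24 (adjusted p = 0.376), and Mical2, a redox enzyme of the semaphorin pathway, at -0.56 ± 0.17 (adjusted p = 0.687). In cerebellum the semaphorin list had 13 of 16 genes below 0 with a median of -0.49, against -0.064 over all genes, and Nrcam, an adhesion protein of semaphorin receptor complexes, stood at -0.57 ± 0.33 (adjusted p = 0.9998).

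Between sham tissues the 6 lists had members called as follows. Of the 16 semaphorin 3 ligands and receptors 6 were called higher and 0 lower in hippocampus than in cerebellum, led by the receptors Nrp2 at 2.50 ± 0.26, Plxnd1 at 1.66 ± 0.25 and Nrp1 at 1.83 ± 0.37. For cortex against cerebellum 6 were higher and 1 lower. Of the 13 kinases and activators 5 were higher in hippocampus than in cerebellum and 4 in cortex, with Camk2a at 4.50 ± 0.22 and 5.12 ± 0.23 and the Cdk5 activator Cdk5r1 at 1.19 ± 0.15 and 1.71 ± 0.15. Among 12 tubulins 2 were called higher in hippocampus than in cerebellum, Tubb2a among them, and 2 lower, Tuba8 and Tubb4a, while 3 were higher and 2 lower in cortex than in cerebellum. Of 15 immature neuron and growth cone genes 6 were higher and 3 lower than in cerebellum in each forebrain tissue. In hippocampus and cortex Sox11 stood at 2.88 ± 0.36 and 3.09 ± 0.36 against cerebellum, and Calb2 at -3.43 ± 0.27 and -5.26 ± 0.30. Of 15 binding partners and cargo adaptors 5 were higher and 1 lower in hippocampus, and 6 higher and 0 lower in cortex, with Chn1, which encodes a chimaerin that acts on Rac, at 2.61 ± 0.15 and 3.11 ± 0.15. Of the 2 measured pyrimidine enzyme genes 1 was called higher in hippocampus than in cerebellum and 0 in cortex. For hippocampus against cortex the called list members were Plxnd1 at -1.06 ± 0.24, Sema3b at 1.13 ± 0.27 and Calb2 at 1.83 ± 0.26. These shares stand beside 28.4%, 34.7% and 3.3% of all genes called in the 3 comparisons.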

How the data were processed

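Reads per gene were taken as raw counts from 1 deposited table per library, made by the authors with Trimmomatic, STAR and featureCounts on mm10, per the submitters' processing notes. Not given in the sources used here: versions, strand setting and multimapping treatment. Polyadenylated RNA of integrity number 8 or more was sequenced as single ends from directional libraries, per the labels' protocols. Reads matching no gene or several genes were left out of library sizes. They were 2.62% to 9.22% and 3.92% to 5.08% of the assigned, no-gene and several-gene reads together. Other classes of unassigned reads are not in that total.

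The members, lists and rule for named genes were chosen with earlier results of these data known. Named genes are the 5 members, up to 3 called genes of smallest p per list and comparison (otherwise the 1 of smallest p), and the 3 genes most correlated with each member. The values of 1 gene taken by this rule are left out of the text. Counts were tested with edgeR 4.0.16 (R 4.3.3): TMM scaling, filterByExpr, estimateDisp, robust glmQLFit and glmQLFTest, two-sided, with Benjamini-Hochberg adjustment over all genes tested and calls at an adjusted p under 0.05. Bulbectomy was compared with sham within each tissue, sham tissues in 1 fit of 15 libraries, and effects between tissues in a fit of 24. CPM levels use 1 TMM scaling over 24 libraries, and correlations use log2(CPM + 1). Annotation was GENCODE M21 (GRCm38). On simulated counts the test recovered 98% of genes changed 4-fold in hippocampus and in cortex and 68% in cerebellum. For 2-fold changes it recovered 67%, 58% and 4%. The changed genes, 100 per size, were drawn only from genes above a minimum mean level, which Dpysl3 in cerebellum does not reach. Fewer changed genes would make the adjustment stricter. No 2 libraries of a group agreed within counting noise.

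Replicate numbers come from the titles. Among comparisons with 3 or more pairs, deviations of same-numbered libraries correlated over 0.1 in every pair only for sham hippocampus against sham cerebellum (0.25 to 0.44), which counts as paired; fitting the number there changed no member's call. In cerebellum the 2 pairs had 0.23 to 0.32, too few to count as paired. DESeq2 1.42.0, limma 3.58.1 voom, RLE scaling, no filter, the replicate block, 1 fit of all libraries, removal of a length and GC trend and leaving out libraries were the alternatives.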

Additional observations from a re-analysis of the deposited data

Results flagged for a closer look

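In 3 of 20 groups of 4 or 5 libraries checked, the highest library of a member lay far from the rest by Dixon's criterion, which chance meets in about 1 group in 20. Dpysl2 was at 93.8 CPM in cerebellum sham 1, against 31.9 to 39.8 CPM in the other cerebellum sham libraries. That library also had the highest sums of granule, Purkinje and thalamus and habenula markers in its group. Dpysl5 was at 49.5 CPM in cerebellum sham 3, against 27.4 to 32.3 CPM in the others. It was also at 42.6 CPM in hippocampus sham 3, against 25.8 to 29.5 CPM.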

How the results depend on the processing

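The hippocampal Dpysl2 difference, which chose the family, was 2.32 to 2.48 over the alternatives (replicate block 2.48) and 2.21 to 2.45 leaving out 1 library at a time. In cortex, where no member was called, DESeq2 called 1 (Dpysl2, 1.30, adjusted p = 0.0259) and voom 1 (1.64, adjusted p = 0.0112), and leaving out 1 library gave 0 to 1. In cerebellum voom called 1 (Dpysl2, 2.30, adjusted p = 0.000263) and leaving out 1 library gave 0 to 1. For sham hippocampus against cortex, removing the length and GC trend called 1 (Dpysl5, 0.44, adjusted p = 0.0464). For sham hippocampus against cerebellum 2 were called, 1 without hippocampus sham 1 and 2 together, and 2 to 3 leaving out 1 library; Dpysl2 was called there by voom (1.11, adjusted p = 2.91e-05) and with the trend removed (0.69, adjusted p = 0.0317). For sham cortex against cerebellum, 3 to 4 were called leaving out 1 library, and Crmp1 was called by voom (-0.34, adjusted p = 0.0379) and in the fit of 24 libraries (-0.47, adjusted p = 0.0281). The causes were not tested.

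Of 650 recomputed member differences 613 kept direction and side of the threshold, 11 gained and 2 lost a call, and 24 changed sign, none of them called. Sign changes were Crmp1 in hippocampus without sham 1 and 2 (-0.045), Crmp1 in cortex with voom (0.073) and in the fit of 24 libraries (0.0065), Crmp1 in cerebellum with voom (0.035), Dpysl4 in cerebellum with the replicate block (-0.025) and Dpysl5 for sham hippocampus against cerebellum with voom (0.036). Leaving out 1 library gave ranges across 0 in cortex for Dpysl3 (-0.15 to 0.046) and Crmp1 (-0.093 to 0.030), in cerebellum for Dpysl4 (-0.038 to 0.15), Dpysl5 (-0.080 to 0.20) and Crmp1 (-0.11 to 0.029), for sham hippocampus against cortex for Dpysl3 (-0.018 to 0.21) and Crmp1 (-0.0075 to 0.23), for sham hippocampus against cerebellum for Dpysl5 (-0.18 to 0.10), and for Crmp1 in cortex minus cerebellum (-0.069 to 0.10).

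The replicate block changed no member's call. Over all genes it moved the calls in hippocampus from 217 to 76, in cortex from 3 to 13, in cerebellum from 2 to 0 and for sham hippocampus against cortex from 500 to 765. DESeq2 called 955, 39, 12 and 895 genes in these comparisons, and voom 307 in hippocampus, 252 in cortex, 67 in cerebellum and 1536. The length and GC trend removed gave 470 in hippocampus, 6 in cortex and 873 for hippocampus against cortex; RLE scaling gave 7 and no filter 24 in cortex; 1 fit of 24 libraries gave 5 in cortex, 3 in cerebellum and 768 for hippocampus against cortex; voom gave 9030 instead of 5251 for cortex against cerebellum; and 348 were called in hippocampus without sham 1 and 2. Leaving out 1 library gave 30 to 477 in hippocampus, 1 to 573 in cortex, 0 to 36 in cerebellum and 284 to 1101 for hippocampus against cortex. The median of all genes shifted by more than 0.1 in hippocampus without a filter (0.018 to -0.14) and, for sham hippocampus against cerebellum, without a filter (-0.049 to 0.096) and without cerebellum sham 1 (-0.049 to 0.063). With 2 cerebellum bulbectomy libraries, 4% of simulated 2-fold changes were recovered, so changes of that size there were mostly not detectable.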
